A study of Mus musculus with 30 samples.

Results

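The 39 genes described here encode ribosome biogenesis factors, proteins that act in making, modifying, cutting and packaging ribosomal RNA. They were taken by symbol from a list chosen with earlier results of these data known. All 39 were found among the 25763 symbols shared by both RNA count tables. By role they comprised 3 factors of RNA polymerase I transcription, 3 proteins of the box C/D small nucleolar ribonucleoprotein (snoRNP), 5 of the box H/ACA snoRNP and its chaperone, 12 of small subunit processing and maturation, 11 of large subunit maturation, and 5 nucleolar chaperones and regulators.

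RNA was measured by RNA-seq in mouse CD4 T cells of spleen and lymph nodes, from control (WT) mice and from mice labelled as a PKA knockout (KO). Naive cells were taken as sorted, activated cells had received anti-CD3/CD28 for 3 days, and forskolin cells had been kept in IL7 for 3 days and then given forskolin, a diterpene that activates adenylyl cyclase, at 1 ug/mL for 4 hours. Each of the 6 RNA groups held 3 libraries, and the 4 naive and activated groups were also profiled by ATAC-seq, which reads open chromatin, with 3 libraries each. The labels give no strain, age, sex or knockout allele and name no vehicle-only group beside forskolin. They also leave unsaid whether replicates were separate mice, and p-values measure only the spread between these samples. Prkaca, which encodes a catalytic subunit of protein kinase A (PKA), was at 34.8 ± 5.11 CPM (counts scaled to the same library total, mean ± SD, n = 3) in naive WT and 2.33 ± 0.273 CPM in naive KO. It was at 49.6 ± 6.17 and 1.11 ± 0.291 CPM in activated WT and KO, and at 34.7 ± 2.20 and 3.20 ± 0.620 CPM in forskolin WT and KO. The KO libraries were below every WT library of their condition for Prkaca, although no label says which PKA gene was deleted.

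As background, a ribosome begins in the nucleolus, where RNA polymerase I copies the ribosomal DNA into a long precursor. Box C/D particles methylate that precursor and box H/ACA particles convert uridines to pseudouridines, while the small subunit processome and the large subunit factors cut and fold it around ribosomal proteins. Resting T cells make few ribosomes, and activation through the T cell receptor raises this output as the cells grow. Many of these genes are known targets of the transcription factor Myc, which binds the E-box CACGTG, and PKA is known for phosphorylating CREB, which binds the cAMP response element TGACGTCA or its core TGACG.

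Promoter sequences were read from RefSeq for the GRCm38.p6 build as 250 bases before and 50 after each gene start. A promoter entry was matched for 34 of the 39 genes, with 38 promoters in all, and no entry was matched for Rrs1, Fbl, Npm1, Bop1 or Rrp12. The E-box CACGTG, which reads the same on both strands, was in 8 of the 38 promoters (21.1%), those of Ltv1, Mybbp1a, Nop2, Pes1, Pno1, Tsr1, Utp20 and Wdr43, against 7.15% of all 32851 promoters. TGACG, searched on both strands and contained in the full element, was in 16 (42.1%) against 20.8% of all promoters. The full TGACGTCA was in 1 (2.63%), that of Noc4l, against 1.79%. The GC box GGGCGG, on either strand, was in 25 (65.8%) against 35.7%. The shares over all promoters were not restricted to genes with RNA in these cells, whereas all 39 genes had RNA here. These matches describe letters in the window, and no binding was measured.

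The promoters of Tsr1, Utp20, Mybbp1a and Polr1b are shown as examples chosen by motif and response. Tsr1, Utp20 and Mybbp1a are the genes with an E-box and a log2 fold change of at least 1 in the forskolin comparison below, and Polr1b has the largest change of the genes whose matched promoter holds no E-box, so the share with an E-box among these 4 is set by the choice. The first base of the E-box lies 24, 37 and 40 bases after the gene start in Tsr1, Utp20 and Mybbp1a, and Polr1b holds none. Capitals mark the E-box, the TGACG core and the GC box on either strand.
Tsr1, chr11:74897830-74898129, plus strand: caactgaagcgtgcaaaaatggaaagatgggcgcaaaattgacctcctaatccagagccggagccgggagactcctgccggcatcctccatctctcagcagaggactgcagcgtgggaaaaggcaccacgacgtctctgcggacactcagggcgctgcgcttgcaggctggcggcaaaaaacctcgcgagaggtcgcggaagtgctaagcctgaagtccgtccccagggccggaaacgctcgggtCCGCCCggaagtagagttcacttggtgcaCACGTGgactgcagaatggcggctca
Utp20, chr10:88826765-88827064, minus strand: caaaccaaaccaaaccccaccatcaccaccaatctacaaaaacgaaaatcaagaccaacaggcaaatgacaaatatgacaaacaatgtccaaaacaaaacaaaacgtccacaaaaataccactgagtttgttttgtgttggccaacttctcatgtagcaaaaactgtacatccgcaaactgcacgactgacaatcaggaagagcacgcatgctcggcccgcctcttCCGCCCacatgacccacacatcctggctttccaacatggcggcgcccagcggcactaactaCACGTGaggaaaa
Mybbp1a, chr11:72441077-72441376, plus strand: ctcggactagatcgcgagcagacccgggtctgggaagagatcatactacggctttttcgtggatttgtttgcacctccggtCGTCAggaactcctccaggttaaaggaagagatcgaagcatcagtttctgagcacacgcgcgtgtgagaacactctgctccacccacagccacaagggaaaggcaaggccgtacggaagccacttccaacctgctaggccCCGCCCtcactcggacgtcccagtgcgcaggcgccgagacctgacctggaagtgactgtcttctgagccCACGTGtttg
Polr1b, chr2:129100746-129101045, plus strand: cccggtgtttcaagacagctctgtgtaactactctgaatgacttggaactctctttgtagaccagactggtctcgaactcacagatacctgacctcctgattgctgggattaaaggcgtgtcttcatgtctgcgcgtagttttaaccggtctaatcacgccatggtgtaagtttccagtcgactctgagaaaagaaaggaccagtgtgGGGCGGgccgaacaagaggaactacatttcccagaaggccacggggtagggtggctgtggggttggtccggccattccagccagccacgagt

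The RNA libraries held between 7665955 and 11950488 counts, and 0 counts in a library allowed up to 3 counts, which is 0.251 to 0.391 CPM, for counting error only. All 39 genes passed the filter on low counts in each fit. The forskolin libraries were deposited in a table of their own, so tests were run within a table, and levels set across tables stand side by side only. Of the CD4 T cell markers, all 9 were detected in every group, and their summed level in forskolin cells ran from 3766 to 3851 CPM in WT and from 3022 to 3157 CPM in KO. Among them Cd4 was at 929.5 ± 27.4 and 617 ± 25.3 CPM (n = 3), and Cd5 and Lck had the higher mean in KO, at 160.6 ± 3.504 and 199.99 ± 9.39 CPM and at 567 ± 10.6 and 591 ± 4.31 CPM. The 8 B cell markers summed to 169 to 191 CPM in forskolin WT and 327 to 339 CPM in KO. Nearly all of that sum was Ighm, at 179 ± 11.6 and 325 ± 5.97 CPM, while Blk was at 0 in both. The 6 proliferation markers summed to 292 to 305 CPM and 295 to 312 CPM. Mki67 was at 7.34 ± 0.977 in WT and 17.5 ± 1.54 CPM in KO and Top2a at 5.14 ± 1.92 and 14.7 ± 1.42 CPM, while Mcm5 was at 54.9 ± 2.39 and 45.2 ± 1.80 CPM, Mcm2 at 80.9 ± 3.52 and 78.3 ± 5.75 CPM and Pcna at 150.1 ± 6.14 and 148 ± 2.07 CPM. In bulk RNA, fewer cells of a type and less RNA per cell cannot be told apart.

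In forskolin cells every one of the 39 ribosome biogenesis factors was higher in KO than in WT. The log2 fold change (KO over WT) ran from 0.20 for Ncl to 1.77 for Rrp12, with a median of 0.77, against a median of -0.00297 over all genes tested. Each of the 39 passed edgeR's quasi-likelihood test at a Benjamini-Hochberg adjusted p of 0.05, where 38.5% of the 11658 genes tested were called and 19.7% were called higher. The 3 KO libraries lay above the 3 WT libraries for all 39, against 26.8% of all genes, and 10 of the 39 were higher by at least 1 on the log2 scale, against 2.38%. Because the list was chosen with earlier results of these data known, these shares describe the 39 genes and are no independent test. Summed over the 39 genes, the RNA level was 3867, 3965 and 3769 CPM in the WT libraries and 5361, 5457 and 5561 CPM in the KO libraries.

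**Figure D1:**
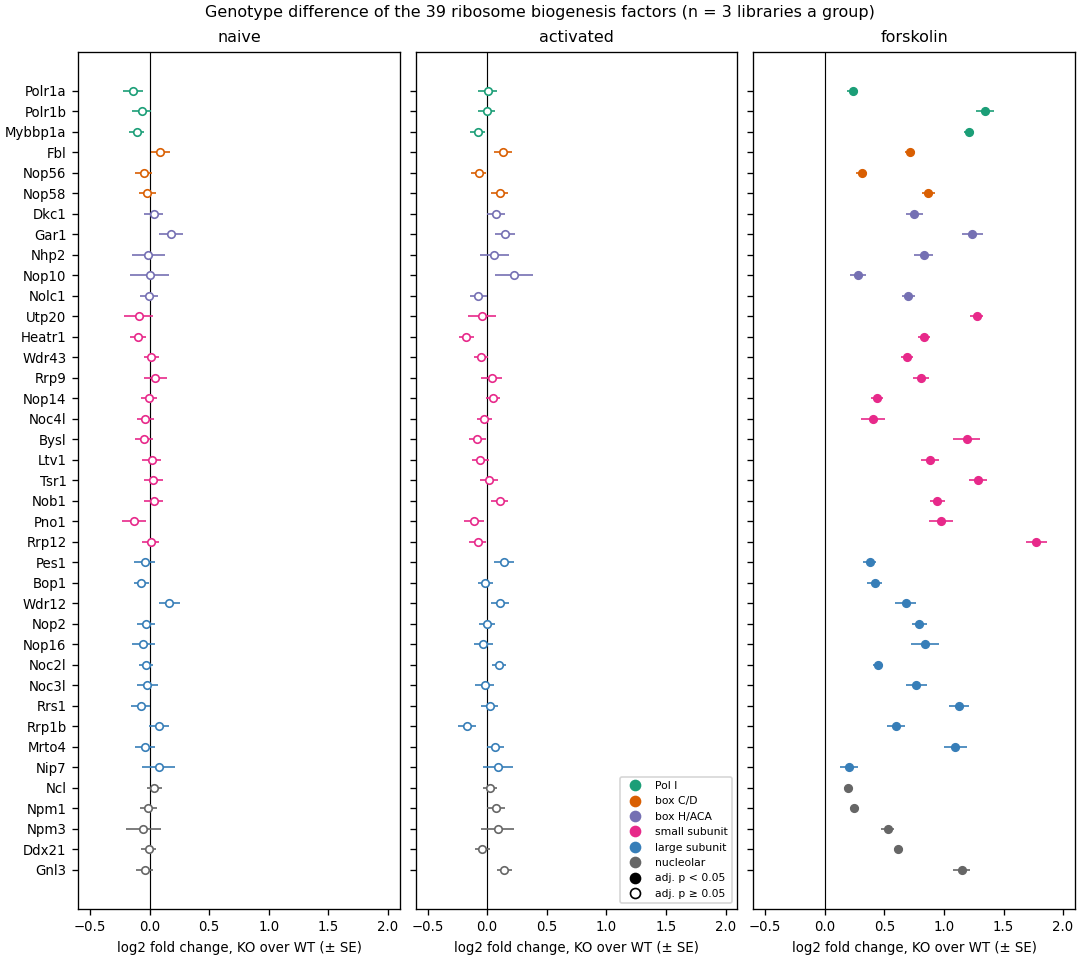
Log2 fold change, KO over WT, with its standard error for each of the 39 genes in naive, activated and forskolin cells (n = 3 libraries a group), coloured by role, with filled points for an adjusted p under 0.05. All points are open in naive and activated cells and lie between -0.17 and 0.22, and all 39 are filled in forskolin cells, from 0.20 to 1.77.

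The polymerase I group had a median log2 fold change of 1.21. Mybbp1a, a nucleolar protein that binds ribosomal DNA and ribosomal precursor complexes, was at 104, 115 and 108 CPM in the WT libraries and at 264, 244 and 262 CPM in the KO libraries. The libraries did not overlap, and the log2 fold change was 1.21 ± 0.04 (SE, adjusted p = 1.07e-19 by edgeR's quasi-likelihood test). Polr1b, the second largest subunit of the polymerase, was at 20.3, 19.2 and 18.6 CPM in WT and at 51.3, 46.4 and 51.6 CPM in KO, a log2 fold change of 1.34 ± 0.08 (adjusted p = 1.4e-14). Polr1a, the largest subunit of the same enzyme, differed less, with 106, 93.3 and 96.6 CPM in WT against 118, 115 and 119 CPM in KO. Its log2 fold change was 0.23 ± 0.05 (adjusted p = 0.000307), so the libraries stayed apart by a narrow margin.

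The box C/D snoRNP core showed a similar spread among its own subunits. Fbl, the methyltransferase fibrillarin, was at 93.5, 88.0 and 93.2 CPM in WT and at 154, 152 and 152 CPM in KO. The gap came to 0.72 ± 0.04 on the log2 scale (adjusted p = 3.33e-14), and the KO libraries lay close together. Its partners Nop58 and Nop56, which hold the particle together, were higher in KO by 0.87 ± 0.06 (adjusted p = 1.27e-13) and 0.31 ± 0.04 (adjusted p = 1.17e-06). Nop56 was at 122, 130.001 and 117 CPM in WT and at 154, 151 and 159.6 CPM in KO, against 55.4, 54.9 and 50.8 CPM and 96.8, 99.6 and 102 CPM for Nop58. All 3 core proteins were higher in every KO library, each by a different amount. The difference between the subunits was not tested.

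Among the box H/ACA proteins, Gar1 differed most and Nop10 least. Gar1 was at 15.7, 13.5 and 14.9 CPM in WT and at 37.5, 33.3 and 34.7 CPM in KO, a log2 fold change of 1.24 ± 0.09 (adjusted p = 1.74e-12). Dkc1, the pseudouridine synthase dyskerin, was at 45.1, 40.6 and 36.5 CPM in WT and 69.1, 66.1 and 73.1 CPM in KO (0.75 ± 0.07, adjusted p = 4.95e-10). Nhp2 was at 20.7, 20.7 and 19.8 CPM and 34.6, 38.3 and 37.6 CPM (0.83 ± 0.08, adjusted p = 1.01e-09). Nop10, the smallest protein of the core, gave 57.1, 51.2 and 46.7 CPM in WT and 61.3, 64.4 and 64.5 CPM in KO, a log2 fold change of 0.28 ± 0.07 (adjusted p = 0.00114). The particle's chaperone Nolc1, a nucleolar phosphoprotein, was higher in KO by 0.70 ± 0.06 (adjusted p = 3.38e-11). The KO libraries of all 5 genes lay above the WT libraries.

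**Figure D2:**
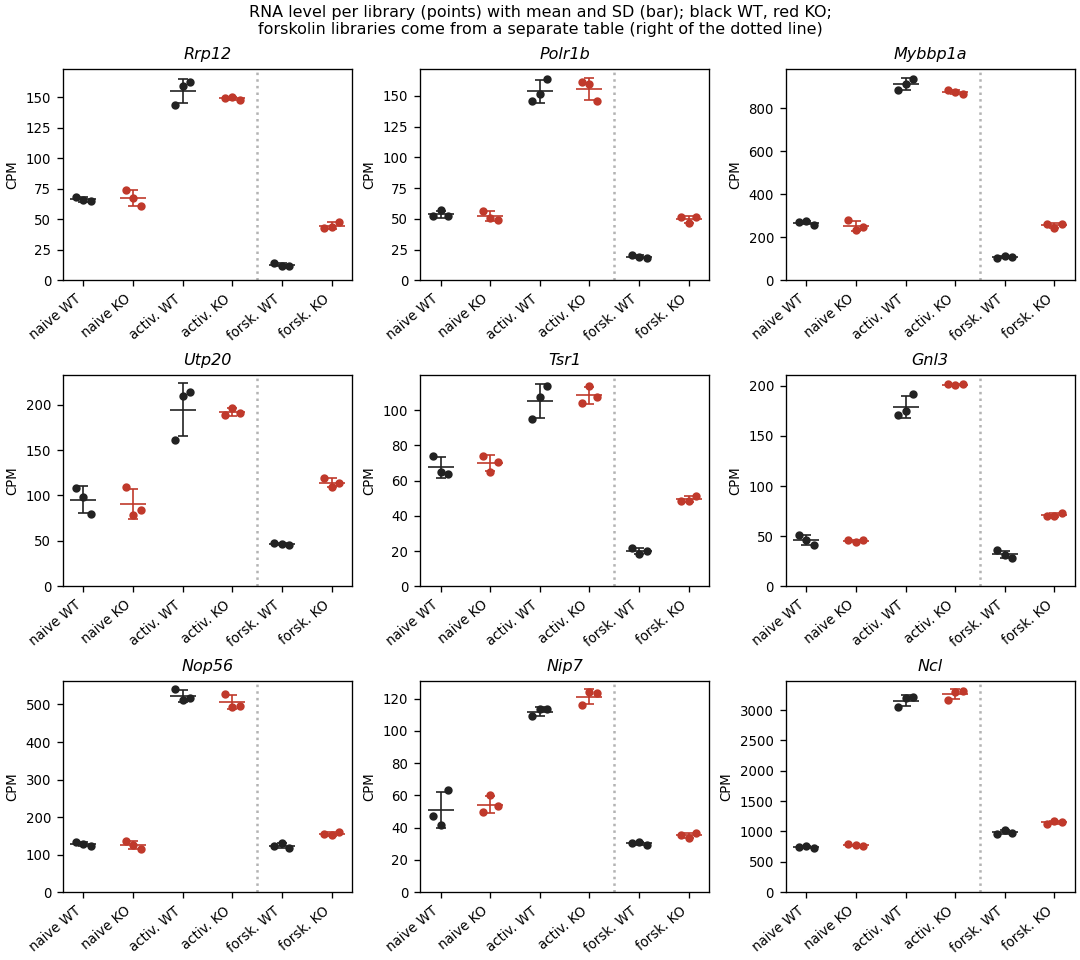
RNA level in CPM of 9 of the genes in each library (points), with the mean and SD of the group (bar), black for WT and red for KO. Left of the dotted line the genotypes overlap or lie close, and right of it, in the separate forskolin table, the KO libraries lie above the WT libraries, by most for Rrp12 and by least for Ncl and Nip7.

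Small subunit factors had a median log2 fold change of 0.91 and held the gene that differed most. Rrp12, which acts in export and maturation of pre-ribosomes, was at 14.6, 12.1 and 12.1 CPM in WT and at 43.3, 43.4 and 47.9 CPM in KO. The log2 fold change was 1.77 ± 0.09 (adjusted p = 4.33e-16). Utp20, a large scaffold of the small subunit processome, was at 47.9, 46.1 and 45.4 CPM in WT and at 119, 109 and 113 CPM in KO (1.27 ± 0.06, adjusted p = 1.86e-17). Tsr1, a late factor that resembles a GTPase and joins the precursor of the small subunit, was at 21.9, 18.1 and 20.0 CPM in WT and at 48.3, 48.6 and 51.4 CPM in KO (1.29 ± 0.08, adjusted p = 4.62e-14). For these 3 genes the gap between the genotypes exceeded the spread within either. Heatr1, needed early for polymerase I transcription and processing, was at 77.1, 70.8 and 79.4 CPM in WT and at 139.6, 138 and 133 CPM in KO (0.83 ± 0.05, adjusted p = 2.73e-14). The other 8 were higher in KO by 0.40 (Noc4l) to 1.19 (Bysl). They included the endonuclease Nob1, which makes the last cut of 18S rRNA, at 0.94 ± 0.06 (adjusted p = 2.94e-13), and its partner Pno1 at 0.97 ± 0.10 (adjusted p = 4.01e-09).

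Large subunit factors had a median of 0.68. Their largest differences were in Rrs1, which brings the 5S particle into the precursor, and Mrto4, a placeholder for a stalk protein. Rrs1 was at 22.6, 17.8 and 21.9 CPM in WT and at 44.99, 46.8 and 46.5 CPM in KO (1.13 ± 0.08, adjusted p = 2.25e-12), and Mrto4 at 13.3, 14.5 and 14.1 CPM and at 30.3, 28.3 and 32.3 CPM (1.10 ± 0.09, adjusted p = 9.49e-11). The 3 partners of the Pes1, Bop1 and Wdr12 complex, which processes the precursor of 28S rRNA, were higher in KO by 0.38 ± 0.06 (adjusted p = 2.33e-06), 0.42 ± 0.06 (adjusted p = 2.98e-06) and 0.68 ± 0.09 (adjusted p = 2.47e-07). In WT and KO libraries Pes1 was at 72.8, 69.2 and 74.7 against 89.8, 96.1 and 99.8 CPM, Bop1 at 48.0, 48.3 and 47.8 against 63.0, 70.4 and 62.3 CPM, and Wdr12 at 20.3, 17.0 and 21.4 against 30.8, 32.6 and 32.3 CPM. The libraries of each partner did not overlap. Nip7, a late large subunit factor, was the one gene whose call did not hold. It was at 30.7, 30.9 and 29.2 CPM in WT and at 35.4, 33.5 and 36.7 CPM in KO, a log2 fold change of 0.20 ± 0.07 (adjusted p = 0.0332). DESeq2 gave an adjusted p of 0.155, and leaving out 1 library gave adjusted p-values of 0.0511 (WT replicate 1), 0.104 (WT replicate 3), 0.0795 (KO replicate 1) and 0.130 (KO replicate 3), so it missed the threshold in each of these.

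The nucleolar chaperones and regulators had the lowest median, 0.53. Over the 39 genes, the log2 of the mean CPM of the forskolin libraries and the forskolin genotype difference gave Pearson's r = -0.475 and Spearman's rho = -0.452. These describe genes that share their libraries, and CPM carry no correction for transcript length. Ncl, the RNA-binding nucleolin, was at 964, 1025 and 969.8 CPM in WT and at 1117, 1165 and 1159.7 CPM in KO (0.20 ± 0.03, adjusted p = 3.89e-05). Npm1, the histone and ribosomal protein chaperone nucleophosmin, was at 1054, 1119 and 1007 CPM in WT and at 1217, 1309 and 1304 CPM in KO (0.25 ± 0.04, adjusted p = 1.19e-05). Processed copies of Npm1 exist in the mouse genome and the handling of reads with several matches is not given, so its level is uncertain to that extent. Gnl3, the GTPase nucleostemin, was at 35.7, 30.9 and 28.7 CPM in WT and at 70.5, 69.6 and 73.6 CPM in KO (1.15 ± 0.07, adjusted p = 5.6e-14). The helicase Ddx21 was at 157, 167 and 161 CPM in WT and at 249, 247 and 259 CPM in KO (0.62 ± 0.04, adjusted p = 1.87e-14). Npm3, a relative of Npm1, was higher in KO by 0.53 ± 0.06 (adjusted p = 8.52e-09). For these 5 genes no KO library reached down to a WT library.

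Other genes of the pathway were counted over whole lists. Over all 11658 genes tested in forskolin cells, 2294 (19.7%) were called higher and 2190 lower. In forskolin cells, large subunit factors outside the 39 were called higher for 33 and lower for 2 of 51 (median log2 fold change 0.31), and small subunit factors for 24 and 3 of 48 (0.17). Other snoRNP assembly factors gave 6 higher and 0 lower of 10 (0.31), exosome and RNase MRP genes 9 and 0 of 19 (0.23), and other polymerase I machinery 5 and 1 of 13 (0.10). The 3 with the smallest p were Wdr46 (1.13 ± 0.06, adjusted p = 7.81e-15), the acetyltransferase Nat10 (1.00 ± 0.06, adjusted p = 2.43e-14) and Nol6 (0.86 ± 0.05, adjusted p = 5.81e-14), all of small subunit processing. Cytoplasmic ribosomal protein genes, which encode the proteins of the finished ribosome, were called higher for 5 and lower for 6 of 82, with a median of -0.00813. Mitochondrial ribosomal protein genes were called higher for 16 and lower for 0 of 77 (median 0.10), with a share called higher close to that of all genes. The summed level of cytoplasmic ribosomal protein genes was 103045 to 105789 CPM in forskolin WT and 102950.0 to 106186 CPM in KO.

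**Figure D3:**
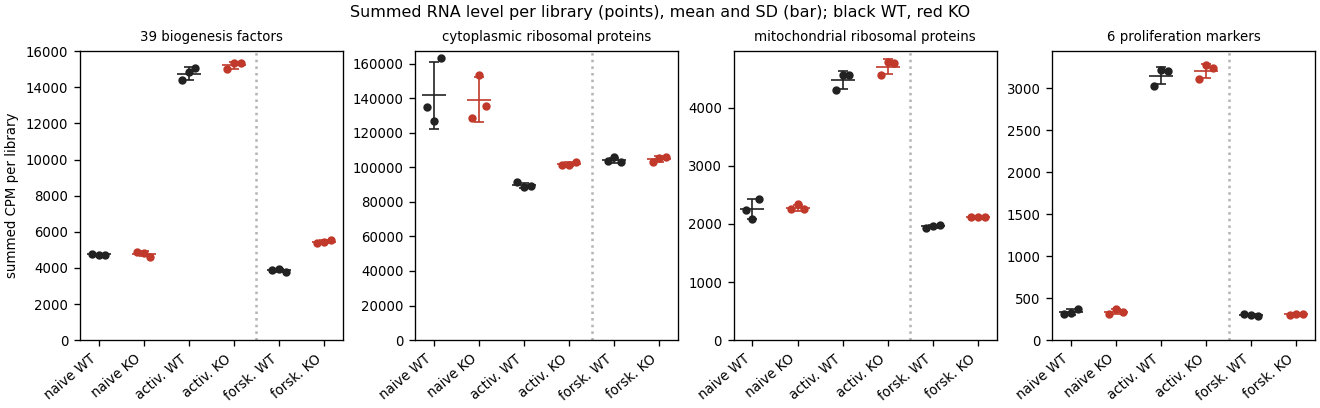
Summed RNA level in CPM per library (points), with mean and SD (bar), of the 39 genes, of cytoplasmic and mitochondrial ribosomal protein genes and of 6 proliferation markers, black for WT and red for KO, with forskolin libraries right of the dotted line. In forskolin cells the sum of the 39 genes separates the genotypes, 3769 to 3965 against 5361 to 5561 CPM, while the sum of the cytoplasmic ribosomal protein genes overlaps.

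In naive and activated cells no gene of the 39 passed the same test between the genotypes. In naive cells, where 0.242% of the 11980 genes tested were called, the log2 fold changes ran from -0.14 to 0.18 with a median of -0.02, and 0 of the 39 had an unadjusted p under 0.05, against 4.94% of all genes. The 3 with the smallest p, which missed the threshold at adjusted p = 1, were Wdr12 (0.17 ± 0.09), Gar1 (0.18 ± 0.10) and Polr1a (-0.14 ± 0.08). Wdr12 was at 28.7, 26.9 and 27.7 CPM in WT and at 30.9, 35.1 and 28.4 CPM in KO, Gar1 at 38.2, 35.8 and 26.4 and at 43.0, 37.6 and 34.9 CPM, and Polr1a at 125, 152 and 113 and at 127, 112 and 122 CPM. The genotypes overlapped in each of these. They did not overlap for 2 of the 39, 1 higher and 1 lower in KO, against 7.85% of all genes. limma-voom and DESeq2 also called 0 of the 39.

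In activated cells, where 14.9% of the genes tested were called, 0 of the 39 passed the test and 3 had an unadjusted p under 0.05, against 27.6% of all genes, and limma-voom and DESeq2 called 0. The log2 fold changes ran from -0.17 to 0.22 with a median of 0.02. Heatr1 was at 284, 296 and 296 CPM in WT and at 257, 277 and 255 CPM in KO (-0.17 ± 0.07, adjusted p = 0.087), and Rrp1b, a nucleolar partner of large subunit assembly, at 162, 179 and 172 and at 154, 156 and 151 CPM (-0.17 ± 0.08, adjusted p = 0.145). For both, every KO library was below every WT library. Fitted on the 6 activated libraries alone, these 2 were called lower, at adjusted p-values of 0.0219 and 0.0215, where that fit called 1383 of 11474 genes lower. Gnl3 was at 171, 175 and 192 CPM in WT and at 202, 201 and 201 CPM in KO (0.14 ± 0.06, adjusted p = 0.152). The KO libraries lay above the WT libraries for 11 of the 39, against 22.1% of all genes, and below them for 2, against 17.1%. Cytoplasmic ribosomal protein genes had 83 of 84 fold changes above 0 in activated cells (median 0.17), with 74 whose KO libraries lay above the WT libraries and 1 past the test. Their summed level was 88527 to 91194 CPM in activated WT and 101289 to 103268 CPM in KO.

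The genotype difference in forskolin cells was compared with that in activated cells in 1 fit of all 18 RNA libraries, each difference being taken within its own table. It was larger in forskolin cells for 32 of the 39 and smaller for 0, where 18.1% of 12607 genes were called and 12.3% were called larger, and 37 had an unadjusted p under 0.05, against 30% of all genes. The 7 that did not pass were Polr1a, Nop10, Pes1, Nip7, Ncl, Npm1 and Npm3, whose differences of differences ran from 0.09 ± 0.21 (Nop10, adjusted p = 0.832) to 0.48 ± 0.18 (Npm3, adjusted p = 0.0758). The median over the 39 was 0.80, against 0.03 over all genes tested. Rrp12 differed most, by 1.89 ± 0.11 (adjusted p = 2.4e-11). Its activated libraries held 144, 159.6 and 162 CPM in WT and 149, 150.4 and 148 CPM in KO, so that the genotypes overlapped there and were far apart in forskolin cells. Polr1b followed at 1.38 ± 0.11 (adjusted p = 1.24e-09), with 146, 151 and 163 CPM in activated WT and 161, 159.8 and 146 CPM in KO. Utp20 (1.35 ± 0.15), Mybbp1a (1.33 ± 0.09), Bysl (1.31 ± 0.13) and Tsr1 (1.30 ± 0.11) came next. All small subunit factors of the list, 12 of 12, passed.

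Myc, an activator of many of these genes and not one of the 39, moved in opposite directions in the 2 conditions. It was at 36.5, 32.2 and 42.0 CPM in forskolin WT and at 104, 86.1 and 111 CPM in KO (1.42 ± 0.13, adjusted p = 0.000322 by edgeR), KO being above WT in every library. In activated cells it was at 572, 525 and 519 CPM in WT and at 414, 389 and 402 CPM in KO (-0.45 ± 0.08, adjusted p = 0.00105), with KO below WT in every library. The difference of these differences was 1.90 ± 0.14 (adjusted p = 3.69e-09), and in naive cells the log2 fold change was 0.05 ± 0.09 (adjusted p = 1). Whether Myc had a part in the levels of the 39 genes was not tested.

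Levels of the same gene can be set beside each other across the tables only as a description. In WT the mean CPM in forskolin cells was 0.568 of the naive mean at the median of the 39 (range 0.195 to 1.33), and 36 of the 39 lay below their naive mean. In KO it was 0.965 (range 0.611 to 1.57), and 23 lay below. Rrp12, for example, had 66.4 ± 1.85 CPM in naive WT and 13.0 ± 1.43 CPM in forskolin WT, against 67.6 ± 6.45 and 44.9 ± 2.65 CPM in KO (n = 3). Forskolin, the days in IL7 and the separate table cannot be told apart here, since no rested group without forskolin was labelled.

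Activation raised the relative level of nearly all of these genes. In WT 38 of the 39 rose and 0 fell, where 82.6% of the genes tested were called and 42.3% were called higher, with a median log2 fold change (activated over naive) of 1.32 against 0.03 over all genes tested. Of the 39, 30 rose by at least 1, against 25.2% of all genes. In KO 39 rose, where 82.1% were called and 42.3% were called higher, with a median of 1.28. The summed level of the 39 went from between 4732 and 4779.6 CPM in naive WT libraries to between 14383 and 15052 CPM in activated WT libraries, and from between 4628 and 4893 to between 15002 and 15363 CPM in KO. Cytoplasmic ribosomal protein genes went the other way in relative level, with 68 of 84 called lower and 3 higher in WT (median -0.76). Over all 11980 genes tested, 4830 were called lower in WT. Mitochondrial ribosomal protein genes were called higher for 71 and lower for 2 of 77 (median 0.98). All of these values are relative to the counts of each library, and RNA per cell was not measured.

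The largest rise in WT was that of Noc4l, a small subunit factor, from 29.4, 30.2 and 26.2 CPM in naive to 161, 163 and 169.9 CPM in activated libraries (2.40 ± 0.07, adjusted p = 1.22e-15). Nop16 followed, from 22.1, 22.5 and 24.3 to 118, 127 and 141 CPM (2.36 ± 0.09, adjusted p = 5.09e-14), then Gar1, from 38.2, 35.8 and 26.4 to 170.1, 188 and 194 CPM (2.33 ± 0.10, adjusted p = 2.09e-13). Nolc1 went from 107, 118 and 107 to 492, 524 and 528 CPM (2.09 ± 0.08, adjusted p = 3.07e-14). In all 4 the activated libraries lay far above the naive ones. At the other end, Polr1a went from 125, 152 and 113 to 243, 225 and 232 CPM (0.72 ± 0.08, adjusted p = 2.19e-07), Tsr1 from 74.1, 64.8 and 63.6 to 94.9, 107 and 114 CPM (0.52 ± 0.08, adjusted p = 6.81e-06), and Npm3 from 110.4, 98.5 and 145 to 164, 199 and 185 CPM (0.50 ± 0.14, adjusted p = 0.00579). Nop10 did not pass in WT. Its naive libraries were at 93.1, 88.8 and 126 CPM and its activated ones at 116, 135 and 139.8 CPM, which overlap (0.22 ± 0.17, adjusted p = 0.242). Without naive WT replicate 3, the highest naive library, it passed at 0.41 (adjusted p = 0.0101).

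In KO Nop10 was at 91.5, 121 and 98.7 CPM in naive and at 138, 154 and 171 CPM in activated libraries (0.44 ± 0.16, adjusted p = 0.027). That call was lost when naive KO replicate 1 (adjusted p = 0.0827) or 3 (0.0661), or activated KO replicate 2 (0.0530) or 3 (0.0856), was left out, and with no filter on low counts (0.0595). The activation response itself did not differ between the genotypes past the test for any of the 39, where 3.7% of the genes tested were called. Of the 39, 1 had an unadjusted p under 0.05, against 15.5% of all genes, and limma-voom and DESeq2 called 0. The 3 with the smallest p missed the threshold, namely Rrp1b (-0.25 ± 0.11, adjusted p = 0.292), Gnl3 (0.18 ± 0.10, adjusted p = 0.384) and Pes1 (0.19 ± 0.12, adjusted p = 0.513). Rrp1b was at 53.1, 51.6 and 41.5 CPM in naive WT and at 58.5, 50.3 and 47.7 CPM in naive KO, Gnl3 at 51.1, 46.2 and 40.9 and at 45.8, 44.0 and 46.2 CPM, and Pes1 at 94.5, 92.1 and 109 and at 94.6, 104 and 92.3 CPM, so that the genotypes overlapped in naive cells in each. Over the 39 genes, the activation change ran parallel in the genotypes, with Pearson's r = 0.986 and Spearman's rho = 0.975 (n = 39 genes, both taken from 1 fit).

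The order of the genes by activation differed from their order by the forskolin genotype difference. Across the 39 genes the WT activation change and the forskolin genotype difference gave r = 0.07 and rho = 0.04, as a description of genes that share their libraries. Noc4l, first by activation, was at 20.3, 19.3 and 21.3 CPM in forskolin WT and at 30.0, 22.6 and 29.0 CPM in KO, a log2 fold change of 0.40 ± 0.10 (adjusted p = 0.00166). Tsr1 and Utp20 changed by 0.52 and 0.90 with activation and by 1.29 and 1.27 between the genotypes in forskolin cells.

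**Figure D4:**
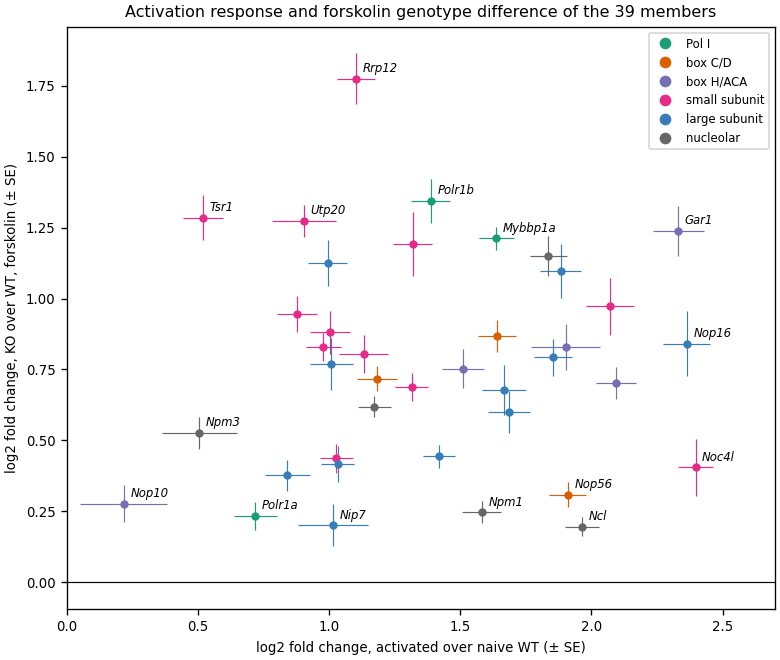
For each of the 39 genes, the log2 fold change of activated over naive WT cells (horizontal) and the log2 fold change of KO over WT in forskolin cells (vertical), with standard errors and coloured by role. All points lie above 0 on both axes, and their order on one axis does not follow the other (r = 0.07).

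Open chromatin at these genes was read as ATAC counts in sites of the authors' deposited tables, on the mm10 build. Libraries held between 18522373 and 25318916 counts in sites. A total of 94 sites reached into the spans of the 39 genes extended by 1 kb or within 1 kb of a gene start, and 38 of these, at 34 genes, reached within 1 kb of a start. In naive cells 0 of the 77 sites tested passed edgeR's test between the genotypes, where 2.1% of 74371 sites were called. Of the 77, 4 had an unadjusted p under 0.05, against 12.6% of all sites, and DESeq2 called 0. The FDR in the authors' deposited table was under 0.05 for 0 of the 94, where 0.0171% of all sites were. With the replicate number as a block, 3 sites were called higher and 1 lower, none at a gene start, where that fit called 4.06% of all sites higher and 4.23% lower. They were 2 at Wdr12 (chr1:60070717-60071117 and chr1:60074952-60075352, log2 fold changes 0.29 and 0.42), 1 at Ncl (chr1:86344290-86344690, 0.26) and 1 at Polr1a (chr6:71920741-71921141, -0.19).

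In activated cells 32 of 93 sites were called higher in KO and 6 lower, where 35.2% of 106123 sites were called and 15.1% were called higher. All 38 sites at gene starts had a log2 fold change above 0, with a median of 0.15, and 23 were called higher and 0 lower. At the starts of other genes 25% of 14028 sites were called higher and 8.64% lower, with a median of 0.08, so sites at gene starts tended to be above 0 outside these genes too. DESeq2 called 5 of the 38 higher, against 9.22% of other gene starts, and leaving out activated KO replicate 3 left 12, against 18.9% of other gene starts. The FDR in the authors' deposited table was under 0.05 for 0 of the 94 sites, where 5.16% of all sites were. The size of these differences was small. The 6 sites called lower, at Noc3l, Pno1, Polr1a, Rrp1b, Utp20 and Wdr43, all lay away from the gene start.

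The site at the start of Ncl (chr1:86359293-86359693) was at 122, 128 and 128 CPM in activated WT and at 143, 139.5 and 142 CPM in KO (0.15 ± 0.03, adjusted p = 0.000387). That at Rrp9 (chr9:106476969-106477369), whose product belongs to the U3 snoRNP, was at 97.9, 101 and 103 CPM in WT and at 113, 114 and 111 CPM in KO (0.15 ± 0.03, adjusted p = 0.000993). The site at Heatr1 (chr13:12394966-12395366) was at 76.9, 75.6 and 80.1 CPM in WT and at 87.3, 86.7 and 91.2 CPM in KO (0.17 ± 0.03, adjusted p = 0.00138). These 3 had the smallest p at a gene start, and their libraries did not overlap. The RNA of the same genes did not differ past the test in activated cells, with log2 fold changes of 0.02 (Ncl), 0.04 (Rrp9) and -0.17 (Heatr1). For Heatr1 every KO library was below every WT library in RNA, and the fit of the activated libraries alone called it lower. Over the printed promoters, the site at Utp20 (chr10:88826622-88827022) was called higher (0.21 ± 0.08, adjusted p = 0.0498), and those at Mybbp1a (chr11:72441098-72441498, 0.13 ± 0.05, adjusted p = 0.0597) and Polr1b (chr2:129100764-129101164, 0.09 ± 0.05, adjusted p = 0.157) missed the threshold. The nearest site to Tsr1 (chr11:74899035-74899435) lay downstream of the printed promoter and was near the floor, at 0.490 ± 0.0663 CPM in activated WT.

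**Figure D5:**
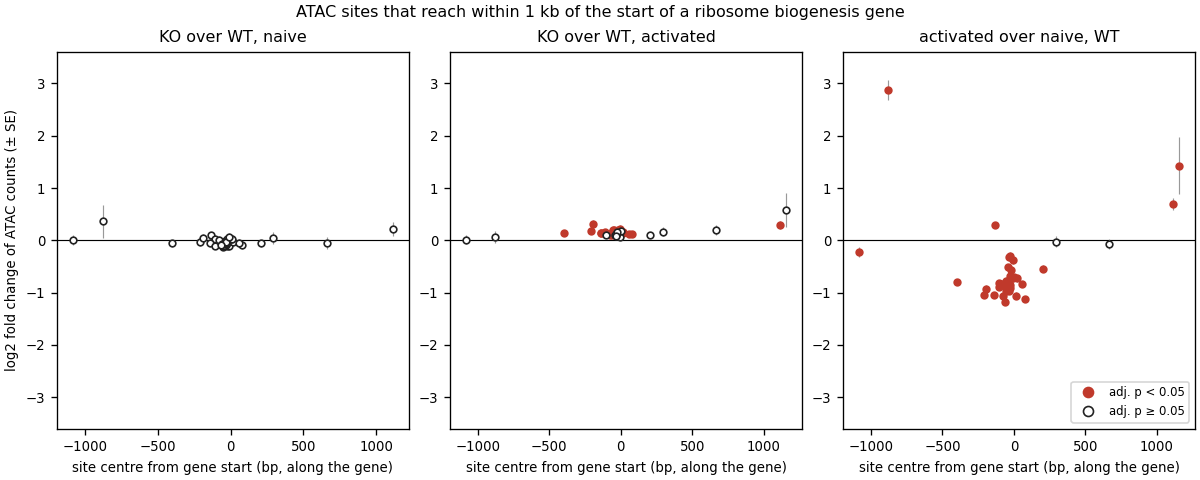
Log2 fold change of ATAC counts, with its standard error, of the sites that reach within 1 kb of a start of the 34 genes, against the distance of the site's centre from the start, for KO over WT in naive and activated cells and for activated over naive WT cells. The genotype points lie near 0 in naive cells and all above 0 in activated cells (median 0.15), and most activation points lie below 0 under TMM scaling (median -0.79).

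From naive to activated WT cells, 28 of the 94 sites were called higher and 57 lower. Over all 110797 sites 89.9% were called, 51.4% higher and 38.5% lower. At the gene starts 4 of 38 were called higher and 32 lower (median log2 fold change -0.79), and at other gene starts 28.9% were called higher and 62.3% lower (median -0.59), against a median of 0.54 over all sites. These directions depended on the scaling. Under total counts the median of all sites moved to 1.09, and the gene starts of the 39 gave 10 higher and 23 lower (median -0.23), against 41.5% higher and 44.1% lower at other gene starts (median -0.0335) and 60.2% and 29.2% over all sites. Relative to all sites, the gene starts of the 39 were lower by either scaling, and so were other gene starts. The site of Polr1b, at 27.1, 31.4 and 25.6 CPM in naive WT and 32.0, 33.9 and 33.2 CPM in activated WT, was higher in CPM of the total and fell by 0.33 ± 0.06 on the log2 scale under TMM (adjusted p = 5.63e-05). No test set the ATAC signal at the start against the RNA of the same genes across these conditions.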

How the data were processed

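RNA counts per gene, whole numbers without scaling, were deposited by the authors in a table of naive and activated libraries and a table of forskolin libraries. ATAC counts per site were deposited by the authors with a p-value and FDR of their own test and a log2 fold, per the file headers. The headers do not say whether that fold was scaled for depth. The build is mm10, per the submitters' processing notes. The aligner, counter, strand setting and peak caller are not given in the sources used here. Features without a symbol (1314 of 27179, with 0.128% to 0.159% of the counts) were not used.

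The deposited counts were tested with edgeR 4.0.16 in R 4.3.3 (filterByExpr, TMM, robust quasi-likelihood fit and test, two-sided, Benjamini-Hochberg adjustment over all features, threshold 0.05). The 12 naive and activated libraries shared a fit, the 6 forskolin libraries had their own, and 1 fit of 18 gave the difference between conditions. ATAC tables were fitted separately, and together for activation. CPM are counts over the library's total and carry no TMM factor, and fold changes do. The scripts were tested on simulated data. Alternatives were RLE, upper-quartile and total-count scaling, other filters, an adjusted p of 0.01, limma-voom (limma 3.58.1), DESeq2 1.42.0, a replicate block, each state alone, and each library left out. The members and lists were chosen with earlier results of these data known.

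Given in full were the members past a genotype test or interaction (at most 8, smallest p first, or 3 where none passed), the 4 largest and 4 smallest activation changes, members not called by activation, and the named complexes. Prkaca, Myc and at most 3 pathway genes were named besides. Genes outside this rule, such as Npm1 and Nob1, are members named as examples of their role, and the ATAC sites given in full were chosen after their values were seen. Replicate numbers come from the labels, which do not say what a number stands for. Deviations of same-numbered WT and KO libraries from their group means correlated at 0.236 to 0.557 in activated RNA, 0.182 to 0.352 in naive ATAC and 0.106 to 0.343 in activated ATAC, so the fit with the replicate number as a block stands beside their main tests, which carry no block.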

Additional observations from a re-analysis of the deposited data

Results flagged for a closer look

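The genotype difference was tested between conditions, and 32 of the 39 genes differed past the test between forskolin and activated cells (edgeR's quasi-likelihood test, adjusted p under 0.05), all being larger in forskolin cells. Among the genes given in full, the log2 difference of differences was 1.89 for Rrp12, 1.33 for Mybbp1a, 1.38 for Polr1b, 1.30 for Tsr1, 1.04 for Heatr1, 1.04 for Gnl3, 1.14 for Rrs1 and 1.06 for Mrto4. Anti-CD3/CD28, culture in IL7, forskolin and the deposited table change together between these groups and cannot be told apart.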

How the results depend on the processing

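Of the 39 genes, 38 to 39 were called higher in forskolin KO when 1 library was left out, 38 by DESeq2 and 39 by limma-voom, and 540 of 546 values of single genes kept their side of the threshold, the other 6 being Nip7. No sign changed among them. The counts without 1 library were 38 to 39 for activation in WT, 38 to 39 in KO and 32 to 35 for the difference between conditions. With activated libraries fitted alone, 2 genes were called lower. The largest shift that another scaling gave to the median of all genes was -0.0879. With the replicate block, RNA counts stayed at 39 in forskolin cells, 38 and 39 for activation and 0 in naive and activated cells. In ATAC the block gave 41 higher and 6 lower in activated cells, against 18.6% and 23.0% of all sites. At gene starts it gave 28 and 0, against 29.4% and 10.6% at other gene starts. For activation it gave 28 and 58, against 51.6% and 38.8% of all sites. For naive RNA the same-numbered libraries correlated at 0.00363 to 0.409 and for forskolin at 0.0776 to 0.217. Each forskolin WT library correlated best with the KO library of its number, and in naive RNA only that of number 1 did. In activated RNA, WT number 3 correlated best with KO number 2, and in activated ATAC, WT number 2 did so with KO number 3. The other WT libraries of these groups, and all of naive ATAC, correlated best with the KO library of their number. With the block 3 naive ATAC sites were called higher and 1 lower, and 0 to 1 higher without 1 library (1 without naive WT replicate 1). In activated ATAC, DESeq2 gave 8 higher and 3 lower, where it called 8.13% of all sites higher and 15.6% lower. A threshold of 0.01 gave 16 and 3, against 8.54% and 14.7% of all sites. Spans of 10 kb gave 36 higher and 12 lower of 160 sites in place of 93, against 15.1% and 20.1% of all sites. The authors' deposited FDR gave 0 and 0. Leaving out 1 library gave 19 to 30 and 3 to 6. The 19 and 3 came without activated KO replicate 3, where 10.8% and 16.3% of all sites were called. For ATAC activation, spans of 10 kb gave 59 higher and 83 lower of 161 sites in place of 94, and single libraries left out gave 27 to 29 higher and 55 to 58 lower. Over all genes, naive calls of 15 higher and 14 lower became 37 and 22 with DESeq2, 23 higher with the block or with no filter, 7 and 7 at 0.01, 23 lower without naive WT replicate 1 and 6 and 5 without naive WT replicate 2. They became 8 and 9 without naive KO replicate 1, 8 and 4 without naive KO replicate 3, 23 higher without activated WT replicate 1 and 9 higher without activated KO replicate 2. Activated calls of 706 higher and 1083 lower became 327 and 640 at 0.01, 1068 higher with the state alone, and 456 or 427 higher without activated KO replicate 2 or 3. The interaction's 141 higher and 302 lower became 51 and 166 at 0.01, and 78 or 86 higher without activated KO replicate 2 or 3. The 1548 larger and 734 smaller differences between conditions became 960 and 388 at 0.01, with 1180 smaller by upper-quartile scaling. The cause of these changes was not tested.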
